A study of Solanum lycopersicum with 40 samples.

Results

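The 200 transcripts described here were those most enriched in ripe tomato fruit over leaf and root tip in wild type plants, out of 10038 probe sets ranked on an Affymetrix tomato array. They were selected on measured values. For each probe set the mean log2 signal of the 4 wild type fruit arrays was set against the higher of the wild type leaf and root tip means, with signals under 50 set to 50, and the 200 largest differences were kept. These differences ran from 2.16 to 7.77 on the log2 scale, with a median of 3.30. The last probe sets inside were LesAffx.58365.1.S1_at at 2.17, LesAffx.8808.1.S1_at at 2.17 and Les.2297.1.S1_at at 2.16, and the first outside were Les.3193.1.S1_at at 2.16, Les.2403.2.S1_at at 2.15 and Les.1121.1.S1_at at 2.14. The choice used wild type arrays only, so the values in the vector control and in the transgenic lines N6 and N7 were not part of it. A gene symbol was known for 61 of the 200, or 30.5%, against 8.62% of the other probe sets, and 53 different genes carried an informative symbol.

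Ripening of tomato is driven by a burst of ethylene, which is made through ACC synthases, sensed by receptors and coupled to MADS-box transcription factors such as RIN. Downstream, pectin-degrading and other wall enzymes soften the fruit, phytoene synthase opens the carotenoid pathway that gives the red colour, and lipoxygenases start the formation of aroma volatiles. Small heat shock proteins, which hold unfolding proteins in solution, are known to accumulate in ripening fruit as well as under heat.

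The study profiled Solanum lycopersicum of the dwarf cultivar Micro-Tom in 4 genotypes: untransformed wild type (WT), a vector control (VC) and the lines N6 and N7, which express an InsP 5-ptase. This inositol polyphosphate 5-phosphatase cleaves a phosphate off inositol phosphates and so ends their signal. Each genotype had 4 arrays of ripe fruit from plants kept 9 weeks in a growth chamber. It also had 3 arrays of leaves and 3 arrays of root tips, both from seedlings of 10 days. There were 40 arrays in all, and none of the plants received a further treatment. The promoter of the transgene is not given in the sources used here, and N6 and N7 are single transgenic lines, so differences shared by both are supported by a pair of lines only. The texts on root tips call the seedlings dark-grown in one place and light-grown in another. The titles name the fruit replicates biological, whereas for leaves and root tips nothing says that replicates were separate plants, and the spread behind the p-values of those tissues may then be technical. Below, a signal is the array's linear intensity, a difference is on the log2 scale of floored signals, and a transcript is called when limma's two-sided adjusted p is under 0.05, with all probe sets of the tissue that were tested entering the adjustment.

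Several fruit arrays stood apart or went against their labels. WT 3 had 27 members more than 2-fold below and 16 more than 2-fold above all other WT fruit arrays, and VC 4 had 20 below and 9 above all other VC fruit arrays. Of these members, 14 were low and 8 were high on both arrays and 0 went opposite ways. A reporter control probe set read 1200 to 4420 on the WT fruit arrays and 5160 on VC 4, against 6.37 to 10.1 on VC 1 to 3. Another reporter probe set, which read 107 to 632 on the leaf and root tip arrays of both lines, read 237 to 336 on the N7 fruit arrays but 4.76 to 20.3 on the fruit arrays labelled N6, close to the 2.28 to 14.0 of VC fruit. EIN2, an ethylene signal gene outside the members, had mean log2 signals of 5.88 in fruit of N6 and of N7, against 8.99 in VC. In leaf and root tip N6 had 9.35 and 9.69, near the 9.405 and 9.62 of VC, while N7 had 6.50 and 6.29. Whether the fruit arrays labelled N6 are of that line was not tested. The fruit counts of the members, their role groups and the pathway lists are therefore given with and without VC 4, and N7 is given beside N6. The mean log2 ratio of 3' to 5' signal of 4 control transcripts, a measure of RNA integrity, was 2.96 on VC 4, 4.23 to 4.52 on VC 1 to 3, 3.25 to 4.04 in N6 and 2.88 to 3.72 in N7, and with this ratio as a covariate 31 members were called higher and 47 lower for both lines in fruit, with 10.3% and 10.4% of the other probe sets.

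Tissue markers matched the labels. The summed signal of 6 photosynthesis genes was 44740 to 71200 on the VC, N6 and N7 leaf arrays and 115 to 227 on the root tip arrays. In fruit it was 2674 to 5283 in VC, 502 to 766 in N6 and 956 to 1070 in N7, and the 4 of them tested in fruit, PSBO, PSBP, CAB4 and PsbQ, were all called lower in the lines. The single seed marker on the array, MAN2, stayed between 0.442 and 13.4 in fruit, below the floor, and the summed root markers were 605 to 1542 in fruit against 8441 to 12530 in root tips. Whether the lower photosynthesis transcripts have a part in the differences of the fruit-enriched transcripts was not tested. In such bulk tissue, fewer cells of a type and less RNA per cell cannot be told apart.

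In WT fruit the leading member was 2A11, an abundant fruit protein gene, with signals of 9731, 12990, 9795 and 11580, whereas it stayed under the floor on all WT leaf and root tip arrays. PG2, the polygalacturonase that cuts pectin in ripe fruit, followed with an enrichment of 7.02, and the lipoxygenase gene LOXB ranked 6 with 6.86. The pectin methylesterase gene PE1 stood at 6.53, the ethylene-responsive ripening gene E8 at 6.15, the endo-mannanase gene Man4 at 5.93, the FRUITFULL-type MADS-box gene TDR4 at 5.93, the expansin gene EXP1 at 5.84, the phytoene synthase gene Psy1 at 5.75 and RIN at 5.67. On every WT leaf and root tip array 72 of the 200 were at the floor, so their enrichment is a lower bound. By role, the named genes held 9 ethylene and MADS-box genes, 6 cell wall genes, 3 lipoxygenase genes, 4 genes of carotenoid, flavonoid and phenolic synthesis, 6 small heat shock protein genes, 7 stress and defence genes, 5 genes of sugar, starch and acid metabolism and 13 others.

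The fruit enrichment held in plants that had no part in the choice. A transcript was counted as fruit-enriched in a genotype when its fruit level exceeded both the leaf and the root tip level at an adjusted p under 0.05, in 1 limma fit over the 30 VC, N6 and N7 arrays. In VC 197 of 200 met this, against 14.4% of the other probe sets. In N6 185 did, against 19.1%, and in N7 187 did, against 19%. The median enrichment was 3.37 in VC, 3.27 in N6 and 3.29 in N7, close to the 3.30 of the choosing arrays. Without fruit VC 4 the counts were 196, 186 and 189.

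The few members that lost their fruit enrichment did so mostly in the lines. Fruit was the highest tissue for 200 members in VC and for 190 in each line. Both psi14B probe sets and lin5, a cell wall invertase gene, were at the floor in all 3 tissues of both lines, and so had an enrichment of 0. The small heat shock protein gene vis1 was at 0 in N6 and -1.12 in N7, and CBF1, a transcription factor gene of the cold response, was at -2.29 in N6 and 0 in N7. Chosen afresh by the same rule in each genotype, the 200 leading transcripts shared 179 with the WT choice in VC, 145 in N6 and 154 in N7. Dropped from the choice in both lines were 37 members, among them TAS14, GolS-1, vis1, psi14B, CBF1 and lin5.

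**Figure D1:**
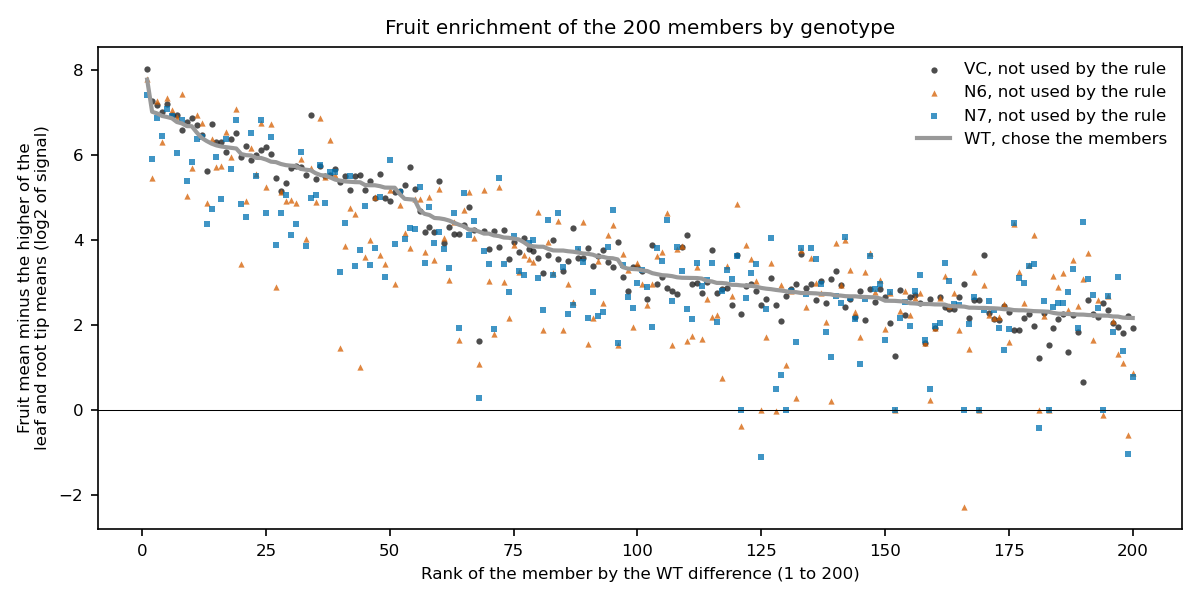
Fruit enrichment (log2, vertical axis) of each of the 200 members by its rank in WT (horizontal axis), with WT as a line and VC, N6 and N7 as points. The VC points follow the WT line with a median of 3.37 and a lowest value of 0.65, whereas some N6 and N7 points fall to 0 or below, the lowest at -2.29.

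In ripe fruit of the lines a larger share of the fruit-enriched transcripts was called than of the other transcripts tested. Tested were 198 of the 200, namely those above the floor on at least 4 of the 12 VC, N6 and N7 fruit arrays, a filter that a transcript could also pass through VC alone. For 3 of them, all called lower, no line array was above the floor. The 2 that did not pass were psi14B (Les.2672.2.S1_at) and Les.4685.1.S1_at. With the mean of N6 and N7 set against VC, 34 were called higher and 55 lower, while of the 5823 other probe sets tested 14.8% were higher and 10.8% lower. Differences beyond 2-fold were called higher for 12 and lower for 36 members, the latter 18.2% of those tested against 4.45% of the others. These shares were not matched for signal. The median log2 signal of the members was 10.35 to 10.85 on the VC fruit arrays, while the others needed only to exceed the floor of 5.64. A probe set near the floor cannot show a 2-fold decrease. The median difference was -0.12 against 0.09 for the others, and -0.03 against 0.01 with the 3' to 5' ratio as a covariate. Without VC 4, 40 members were called higher and 72 lower, and of the others 27.2% were higher and 15.4% lower.

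Each line gave similar counts, though both comparisons use the same VC arrays. The fruit arrays labelled N6 also differed from N6 in leaf and root tip, as given above, so agreement in fruit may not be that of a pair of lines. For N6 against VC 27 members were called higher and 51 lower, with 9.77% and 8.67% of the other probe sets. For N7 against VC 33 were called higher and 47 lower, with 14.6% and 9.17% of the others. Without VC 4 these became 42 higher and 65 lower in N6, with 21.7% and 13.6% of the others, and 40 higher and 72 lower in N7, with 27.5% and 14.7%. With both VC 4 and the N6 arrays left out, an alternative added after seeing the data, N7 had 42 higher and 69 lower, with 26.7% and 14.4% of the others. Called in both lines were 20 higher and 40 lower members, and 0 were called in opposite directions. Set directly against each other, N7 exceeded N6 for 11 members and was below it for 5, where 1.85% and 0.876% of the others were called. Without VC 4, whose spread enters that fit, these counts were 21 and 11, with 5.33% and 3.18% of the others.

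**Figure D2:**
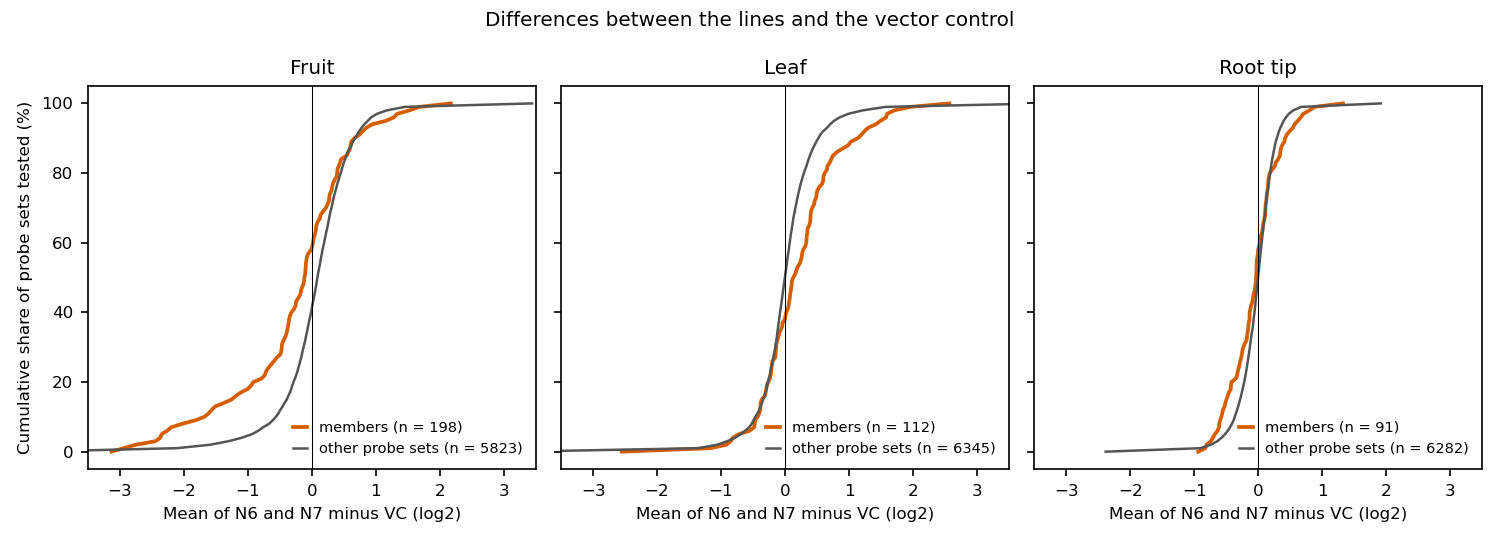
Cumulative share of probe sets (vertical axis, percent) by their difference between the mean of N6 and N7 and VC (horizontal axis, log2), for members and other probe sets in fruit, leaf and root tip. In fruit the member curve lies left of the others over its lower and middle part, with medians of -0.12 and 0.09, and crosses to their right near the top. The axis ends before the most extreme of the other probe sets.

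The balance of higher and lower calls differed with the plants that chose the transcripts, in comparisons added after seeing the data. When the same rule was applied to the N6 arrays, the 200 transcripts chosen had 55 higher and 28 lower calls in N7 against VC, with 14.2% and 9.5% of the other probe sets. When it was applied to the N7 arrays, the 200 chosen had 49 higher and 29 lower calls in N6 against VC, with 9.4% and 9.05% of the others. N6 and N7 express the same enzyme, so a choice in one line is not independent of differences that both lines share. WT and VC are both without that transgene, so the WT choice has the same limit the other way. The 136 members chosen in WT, N6 and N7 alike, a choice that also used line values, had 31 higher and 25 lower calls for both lines against VC. Their median was -0.001, and of the others 14.7% were higher and 11.2% lower. These choices were compared with VC 4 kept in the fit. The share called was 39% to 41.5% under them and 39% to 44.5% for the WT choice. Within the WT choice, the 50 members of highest enrichment had 3 higher and 19 lower calls and a median of -0.36, and the last 50 had 12 higher and 7 lower and a median of 0.09.

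**Figure D3:**
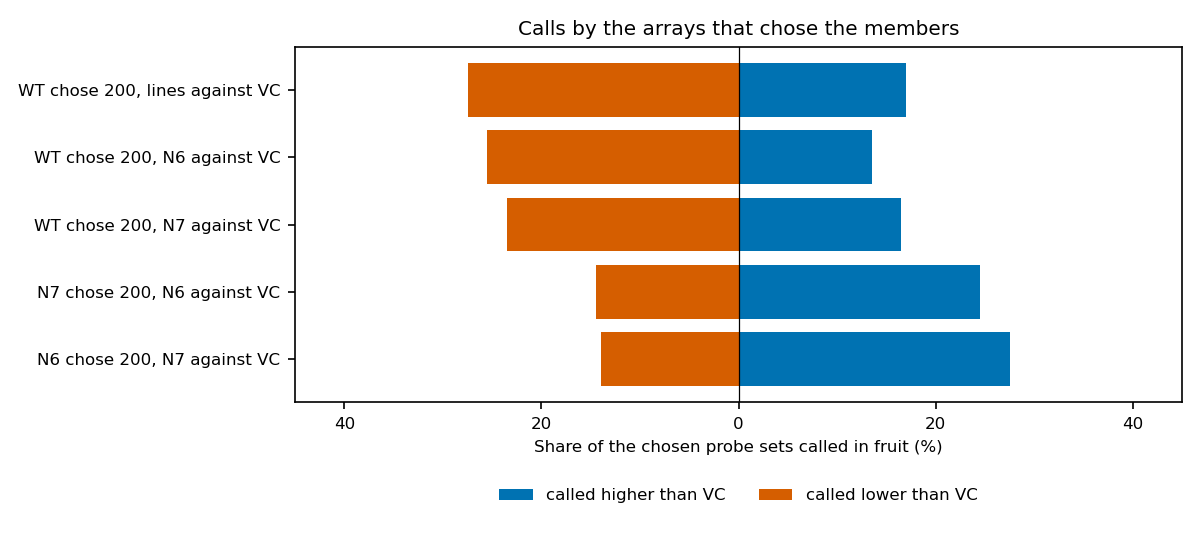
Share of the chosen probe sets called higher (right) or lower (left) than VC in fruit (horizontal axis, percent), by the genotype whose arrays chose them and the line compared. Lower calls outnumber higher ones for the WT choices, 27.5% against 17% for both lines, and higher calls outnumber lower ones when N6 or N7 chose.

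All 6 small heat shock protein genes among the named members fell in both lines, and they also fell without VC 4. The largest difference was that of HSP17.4, a cytosolic type. Its signals were 3189, 2598, 2485 and 1044 in VC, 128, 170, 107 and 157 in N6, and 500, 482, 465 and 457 in N7. The groups did not overlap, and N6 lay below N7 as well. The lines were lower than VC by a log2 difference of -3.07 ± 0.24 (SE, limma adjusted p = 9.21e-07), an 8.40-fold decrease, and N7 exceeded N6 by 1.78 (adjusted p = 0.00351).

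HSP21, whose product resides in plastids, read 6133, 4490, 6297 and 2604 in VC, 1071, 667, 601 and 656 in N6, and 1396, 1390, 883 and 2032 in N7. Each line array was below the lowest VC array, which was VC 4, and the log2 difference was -2.21 ± 0.25 (adjusted p = 2.75e-05 by limma). ER-SHSP, the type of the endoplasmic reticulum, read 4540, 2960, 4222 and 2505 in VC, 985, 459, 330 and 559 in N6, and 1280, 1336, 1023 and 2378 in N7. Here too all line arrays were below VC, with -2.68 ± 0.32 in N6 and -1.27 ± 0.32 in N7, and N7 exceeded N6 by 1.41 (adjusted p = 0.0281).

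MTSHP, the mitochondrial type, was lower by -1.71 ± 0.19 on the log2 scale, with VC signals of 1412 to 2061 and line signals of 384 to 762. vis1 read 471, 224, 401 and 141 in VC, whereas 7 of the 8 line arrays were under the floor and N7 4 read 89.0, so its 5.17-fold decrease is a lower bound. HSP17-6 was bright throughout, at 6247 to 9113 in VC, 3401 to 4509 in N6 and 4385 to 6182 in N7, and fell by 0.70 (adjusted p = 0.00129). All line arrays lay below VC, although the gap between N7 and VC was narrow, and N6 and N7 overlapped. The heat shock list held 5 genes, HSP21, MTSHP, HSP17.4, vis1 and ER21, which is placed among the other genes below. It left out ER-SHSP and HSP17-6. Of the 5 listed, 0 were called for both lines together in leaf or root tip, where 4 and 1 were bright enough to be tested. HSP17-6 was tested in leaf, at 0.002, and in root tip, at 0.50, and was not called (limma adjusted p = 0.997 and 0.735).

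Among stress and defence genes, 4 of 7 fell, 1 rose and 2 did not pass the test, and without VC 4 5 fell and 1 rose. TAS14, a dehydrin gene induced by drought and salt, read 1042, 667, 657 and 3227 in VC, 24.8, 133, 166 and 151 in N6, and 192, 235, 136 and 176 in N7. The lines lay well below VC in every array, at -2.94 ± 0.41 on the log2 scale (limma adjusted p = 0.000149), and VC 4 was the highest control. Without VC 4 the difference was -2.42. Its enrichment in fruit over the other tissues was 4.20 in WT but 1.62 in VC.

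GolS-1, a galactinol synthase gene of raffinose sugar formation, read 1449, 932, 1092 and 509 in VC, 103, 220, 208 and 189 in N6, and 162, 226, 158 and 214 in N7. No line array reached the lowest VC array, and the log2 difference was -2.37 ± 0.27 (limma adjusted p = 3e-05). CBF1 read 736, 1072, 604 and 5.86 in VC, 43.9, 45.8, 46.9 and 65.0 in N6, and 24.7, 23.9, 21.8 and 21.5 in N7. VC 4 was thus below all line arrays while VC 1 to 3 were far above them, and the log2 difference of floored signals was -2.93 with VC 4 and -3.92 without it. As 7 of the 8 line arrays were under the floor, the latter is a bound, and in the former VC 4 was itself set to the floor. WT 3 likewise read 3.61 where the other WT arrays read 396 to 597. CBF1 met the filter on dim probe sets through VC 1 to 3 and N6 4 alone, so its call was bound up with the filter. DREB1, of the same transcription factor family, fell by 0.44 (adjusted p = 0.0193), with 784 to 1061 in VC and 578 to 820 across the lines, an overlap of N7 2 with the lowest VC array.

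The gene that rose most among those with a symbol was LE16, a lipid transfer protein gene. Its signals were 275, 344, 205 and 142 in VC, 763, 605, 695 and 503 in N6, and 1939, 1857, 1855 and 1204 in N7. The 3 groups did not overlap. The lines exceeded VC by 2.17 ± 0.22 on the log2 scale (limma adjusted p = 8.84e-06), and N7 exceeded N6 by 1.41 (adjusted p = 0.00746). JA2, a NAC transcription factor gene, was called higher in N7 alone, at 0.71 (adjusted p = 0.00737) against 0.10 in N6, and the direct difference between the lines missed the threshold at adjusted p = 0.0635 and passed it without VC 4, at 0.61 (adjusted p = 0.0237). The pathogenesis-related gene PR-P2 was not called, at -0.35, and became so without VC 4, at -0.62 (adjusted p = 0.0334).

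Of the 6 cell wall genes, PG2 fell and the other 5 did not pass the test for both lines together. Without VC 4 3 of them fell, PG2 included. PG2 read 8742, 6071, 10540 and 6197 in VC, 3335, 1798, 1908 and 2079 in N6, and 3250, 2653, 1927 and 4778 in N7. All line arrays lay below all VC arrays, N7 4 being the closest. The log2 difference was -1.58 ± 0.23 (limma adjusted p = 0.000231), a 2.99-fold decrease, and it stayed called under all 22 alternatives run for it, from -1.84 to -1.37.

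Man4, the endo-mannanase gene, read 4720, 4099, 5003 and 1088 in VC and 1855 to 3186 across the lines, so that VC 4 lay below and VC 1 to 3 above every line array. Its log2 difference was -0.48 (adjusted p = 0.291) with VC 4 and -0.996 (adjusted p = 9.2e-05) without it. The endoglucanase gene Cel1 behaved alike, with 1956, 2642, 1709 and 107 in VC, 165, 768, 765 and 733 in N6 and 411, 517, 341 and 911 in N7. Its difference was -0.95 (adjusted p = 0.341) with VC 4 and -2.02 (adjusted p = 0.00122) without it. WT 3, at 201, was also below the other WT arrays, which read 1301 to 2532.

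For the pectin methylesterase and expansin genes the lines gave unlike values, and of these differences that of PE1 passed the test. PE1 read 5453 to 7236 in N6 and 3819 to 4657 in N7, with no overlap, and N7 was lower by 0.56 (limma adjusted p = 0.0245), while VC lay between at 4609 to 6248. PME2.1 was called higher in N6, at 0.83 (adjusted p = 0.0133), and was 0.07 from VC in N7. EXP1 was called higher in N6, at 0.47 (adjusted p = 0.0486), and was 0.03 from VC in N7. For PME2.1 and EXP1 the direct difference between the lines missed the threshold, at adjusted p = 0.0707 and 0.161. Without VC 4 N7 was below N6 for all 3 genes, at adjusted p = 0.00984 for PE1, 0.00421 for PME2.1 and 0.0211 for EXP1, and EXP1 was no longer called higher in N6, at adjusted p = 0.0585. Of the 6 cell wall genes, N6 then had 1 higher and 3 lower calls, where it had 2 and 1 with VC 4, and N7 had 0 and 4, where it had 0 and 1.

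Among the 9 ethylene and MADS-box genes, 2 rose, 0 fell and 7 did not pass, and without VC 4 2 rose and 2 fell. ETR6, an ethylene receptor gene, read 319, 228, 256 and 336 in VC, 524, 588, 449 and 575 in N6, and 498, 394, 364 and 488 in N7. Each line array exceeded each VC array, and the log2 difference was 0.77 ± 0.16 (limma adjusted p = 0.00333). TDR4 read 4084, 2328, 3726 and 4764 in VC and 4896 to 6666 across the lines, again without overlap, at 0.61 ± 0.15 (adjusted p = 0.0102), a call that was lost when the 3' to 5' ratio entered the fit.

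RIN itself was not called, at 0.27 ± 0.14 (limma adjusted p = 0.166), with 2311 to 3311 in VC and 2790 to 4658 across the lines. The MADS-box genes TAGL1, MADS1 and AG1 had differences of 0.39, 0.27 and -0.18 and were not called. The ACC synthase genes ACS2 and ACS4 had -0.17 and -0.32, and E8 had -0.18, none of them called. Without VC 4, which read 717 for ACS2 where VC 1 to 3 read 3178 to 4136, ACS2 reached -0.76 (adjusted p = 0.0103) and E8 -0.41 (adjusted p = 0.0212).

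Of the 3 lipoxygenase genes 1 rose, with and without VC 4. TomloxE read 752, 640, 603 and 1194 in VC, 2076, 1608, 1389 and 1694 in N6, and 2488, 2305, 1954 and 2099 in N7. The line arrays all exceeded VC, with VC 4 the highest control and N6 and N7 overlapping, and the lines exceeded VC by 1.32 ± 0.17 on the log2 scale (limma adjusted p = 7.12e-05), a 2.50-fold increase. LOXB, at 5181 to 7093 in VC and 5021 to 7835 across the lines, differed by 0.06 (adjusted p = 0.723). loxC, which is needed for fatty acid derived aroma volatiles, differed by 0.03 (adjusted p = 0.945), with 1509 to 2337 in VC and 1302 to 3573 across the lines.

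None of the 4 pigment and phenolic genes passed for both lines together in fruit. Psy1 read 7947, 5012, 7540 and 7133 in VC, 8710, 6749, 6571 and 6138 in N6, and 5946, 5376, 4240 and 7444 in N7. The groups overlapped broadly and the log2 difference was -0.12 ± 0.16 (limma adjusted p = 0.608). The chalcone synthase genes CHS1 and CHS2 differed by -0.40 and 0.27. On VC 4 CHS1 read 361 where VC 1 to 3 read 2564 to 3090 and the lines 959 to 2085, and without it CHS1 was called lower, at -1.13 (adjusted p = 7.04e-05). hqt, of chlorogenic acid synthesis, was not called at 0.41 and was called higher without VC 4, at 0.63 (adjusted p = 6.62e-05).

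In sugar, starch and acid metabolism 2 of 5 genes fell and 1 rose, and without VC 4 1 of the 4 tested fell and 1 rose. lin5, a cell wall invertase gene, read 298, 336, 380 and 208 in VC, whereas all 8 line arrays were under the floor, at 24.2 to 41.1 in N6 and 5.03 to 15.9 in N7. It was therefore at least 5.96-fold lower. It met the filter on dim probe sets through the 4 VC arrays alone, so its call was bound up with the filter, and without VC 4 it was not tested. SNF4, a subunit gene of the SNF1-related energy-sensing kinase, read 2764, 1871, 2382 and 4137 in VC, 936, 1890, 1559 and 1619 in N6 and 937, 1372, 794 and 1116 in N7. One N6 array slightly exceeded the lowest VC array, and the difference was -1.12 ± 0.22 (adjusted p = 0.00202). PPCK2, the kinase gene of PEP carboxylase, rose by 0.55 (adjusted p = 0.00345), with 1308 to 2066 in VC and 2303 to 2840 across the lines, a call lost when arrays were scaled to equal medians.

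AI, the acid invertase gene, was bright in all groups, at 6773 to 8167 in VC and 6098 to 8665 across the lines, and differed by 0.04 (limma adjusted p = 0.81). The beta-amylase gene BMY3 has a pair of probe sets among the members, and they disagreed. Les.1401.1.S1_at, the one of higher enrichment, differed by 0.18 (adjusted p = 0.199), while Les.1401.2.S1_at was higher by 1.41 (adjusted p = 0.0215), with VC signals of 151, 124, 155 and 756 and line signals of 344 to 993, overlapping at VC 4.

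Among the other named genes, 5 fell, 3 rose and 4 did not pass, and psi14B was not tested on the probe set of highest enrichment. Without VC 4 6 fell and 1 rose. The other psi14B probe set, Les.2672.1.S1_x_at, was called lower with no line array above the floor. It met the filter on dim probe sets through the VC arrays alone, so its call was bound up with the filter. ER24, a transcriptional coactivator gene, read 2646, 1799, 2280 and 1263 in VC, 680, 377, 331 and 417 in N6, and 735, 499, 246 and 967 in N7. No line array reached VC, and the log2 difference was -1.99 ± 0.32 (limma adjusted p = 0.000468). ER21 fell by 0.73 and DEM2 by 0.74, with adjusted p = 0.0029 and 0.00656. 2A11, at 11110 to 16210 in VC, 9877 to 13720 in N6 and 7254 to 10030 in N7, was lower by -0.43 (adjusted p = 0.0212), a call lost under 6 of 22 alternatives, rescaling among them. The gene ail fell by 0.49 on 1 probe set and by 0.38 on its other.

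RDRP, an RNA-directed RNA polymerase gene, rose by 0.73 (limma adjusted p = 0.0098), a call lost with the 3' to 5' ratio in the fit. The auxin-binding protein gene ERABP1 and matriochka were called higher by 0.28 and 0.38, calls that each were lost under 11 of 22 alternatives, leaving out VC 4 among them. FESOD, the iron superoxide dismutase gene, was just outside the threshold at -0.37 (adjusted p = 0.056) and inside it without VC 4, at -0.42 (adjusted p = 0.0293). hdc, DIG3 and DDTFR18 differed by -0.10, -0.10 and -0.01 and were not called. Over all 53 named genes, of which 52 were tested, 8 rose, 18 fell and 26 did not pass, and without VC 4 7 rose and 24 fell. Of the other probe sets tested 14.8% were called higher and 10.8% lower, and 27.2% and 15.4% without VC 4. The role group counts for both lines together stand beside the same shares.

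**Figure D4:**
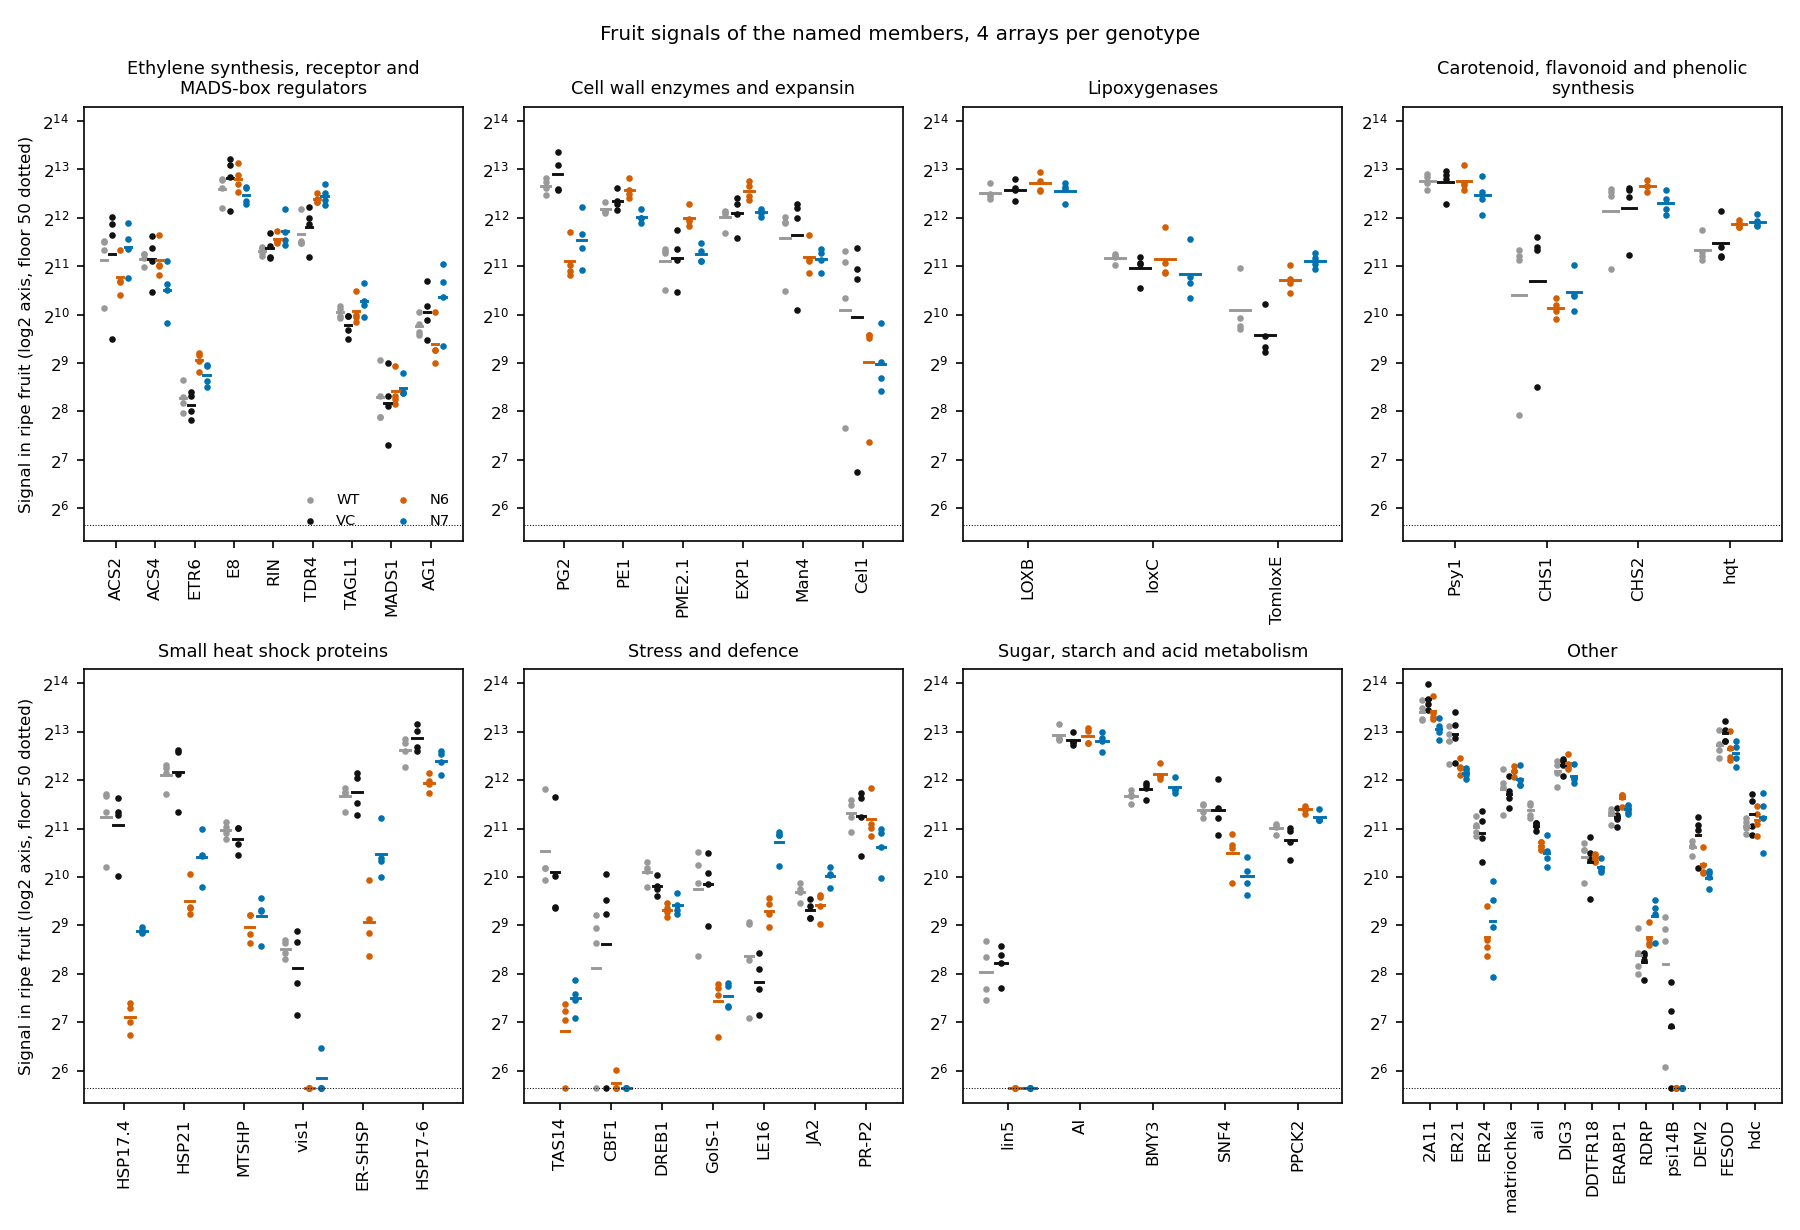
Fruit signals (vertical axis, log2 spacing, with the floor of 50 dotted) of the 53 named genes on each of the 4 arrays of WT, VC, N6 and N7, in 8 groups by role. Points are arrays and bars are means of log2 values. All 6 small heat shock protein genes lie lower in the lines, LE16 and TomloxE lie higher, and 1 VC point far below the rest marks Cel1, CHS1 and CBF1.

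Members without a symbol reached similar sizes. LesAffx.69957.1.S1_at read 4083, 1933, 3507 and 997 in VC, 156, 97.5, 64.0 and 104 in N6, and 826, 719, 225 and 1615 in N7. N6 lay below every N7 array, which overlapped only with VC 4, and the differences from VC were -4.51 in N6 and -1.75 in N7, with N7 exceeding N6 by 2.77 (limma adjusted p = 0.0109). Les.828.1.A1_at read 286 to 379 in VC and stayed under the floor on all line arrays, a decrease of at least 6.68-fold. It met the filter on dim probe sets through the VC arrays alone, so its call was bound up with the filter. LesAffx.23510.1.S1_at, LesAffx.15004.1.S1_at and LesAffx.10596.1.S1_at fell by 2.43, 2.35 and 2.35 on the log2 scale.

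On the other side, LesAffx.34276.2.S1_at read 343, 147, 223 and 136 in VC, 1177, 775, 758 and 797 in N6 and 714, 522, 417 and 538 in N7. All line arrays exceeded VC, by 1.78 ± 0.24 on the log2 scale (limma adjusted p = 0.000125). LesAffx.35587.1.S1_at, LesAffx.68493.1.S1_at, LesAffx.68271.1.S1_at and LesAffx.9824.1.S1_at were higher by 1.68, 1.63, 1.52 and 1.31. For LesAffx.68271.1.S1_at VC 4 read 2267 and the other VC arrays 320 to 619, so that it overlapped with the lines at 990 to 3935. Of the 5 such members of highest enrichment, Les.3981.1.S1_at was called, at -0.64, and LesAffx.33607.1.S1_s_at, Les.5371.1.S1_at, LesAffx.3918.1.S1_at and LesAffx.33607.2.S1_s_at were not, at -0.10, 0.01, -0.13 and -0.25.

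Set beside the wider pathways, 7 of the 27 tested ethylene and ripening genes rose and 2 fell in fruit, 5 and 2 of them among the 19 that were not fruit-enriched members. Of 17 cell wall genes of ripening fruit 1 rose and 4 fell, of 13 carotenoid and isoprenoid genes 0 rose and 2 fell, and of 9 aroma genes 3 rose and 1 fell. Of 13 sugar and organic acid genes 2 rose and 6 fell, and of 9 pathogenesis-related genes 1 rose, the member LE16, and 4 fell. The median differences were 0.27 for the ethylene list, -0.20 for cell wall, -0.05 for carotenoid, 0.03 for aroma, -0.50 for sugar and -0.78 for pathogenesis-related genes, beside 0.09 for the other probe sets as a whole. Without VC 4 the ethylene list had 11 higher and 5 lower calls of 27, the cell wall list 1 and 6 of 16, the carotenoid list 1 and 4 of 13, the aroma list 3 and 2 of 9, the sugar list 2 and 6 of 12 and the pathogenesis-related list 2 and 5 of 9. Of the probe sets outside the members 14.8% were called higher and 10.8% lower with VC 4, and 27.2% and 15.4% without it.

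In leaf, where most members are dim, 112 of the 200 were bright enough to be tested, 9 of them with no VC array above the floor. For both lines against VC 11 were called higher and 2 lower, with 4.82% and 4.73% of the 6345 other probe sets. For N6 alone 11 were higher and 6 lower, with 5.28% and 5.86% of the others, and for N7 alone 12 were higher and 0 lower, with 3.61% and 3.77%. At an unadjusted p under 0.05 N7 had 31 of 112 members in either direction, beside 1586 of the 6345 others. These leaf counts rested on single arrays. Without leaf VC 1, 1 member was called for both lines, 3 for N6 and 0 for N7, with 1.46%, 2.6% and 0.84% of the others. Without leaf N7 3, on which 17 members were more than 2-fold below the other N7 arrays, 29 were called for both lines, and then 19.1% of the others were called too.

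The leaf calls included Psy1 and BMY3, whose leading probe sets were not called in fruit. Psy1 read 116, 129 and 155 in leaf of VC, 231, 241 and 210 in N6, and 473, 367 and 194 in N7. All line arrays exceeded VC, N7 3 being the lowest of them, and the log2 difference was 1.03 ± 0.26 (limma adjusted p = 0.0341), a call lost under 11 of 19 alternatives, the replicate block among them. The difference between its fruit and leaf effects was -1.15 (adjusted p = 0.00296). BMY3 on Les.1401.1.S1_at read 214, 288 and 243 in VC, 624, 477 and 642 in N6, and 1296, 1612 and 425 in N7. Again no line array overlapped with VC, at 1.59 ± 0.36 (adjusted p = 0.0255), a call lost under 8 of 19 alternatives. Its effect differed from that in fruit by -1.42 (adjusted p = 0.00266). Its other probe set was not called in leaf, at 0.60.

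DREB1 was called lower in leaf too, on values near the floor. It read 107, 110 and 92.3 in VC and was under the floor on all N6 arrays and on N7 1 and 2, while N7 3 read 107, within the VC range, and the log2 difference was -0.86 (limma adjusted p = 0.0455). That call was lost under 13 of 19 alternatives, the replicate block and each VC and N6 array left out among them, and across the alternatives the difference came as close to 0 as -0.06. Of the other called members, chosen for mention after their values were seen, Les.2476.1.S1_at read 71.0, 155 and 134 in VC, 488, 844 and 665 in N6, and 929, 1297 and 290 in N7. All line arrays exceeded VC, with N7 3 again the lowest of them and N6 within the range of N7, and the difference was 2.57 (adjusted p = 0.00938). Les.85.1.S1_at was the most even, with 285 to 326 in VC and 506 to 637 across the lines, at 0.91 (adjusted p = 0.00424).

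In 1 line only, loxC was called higher in leaf of N6, at 2.36 (limma adjusted p = 0.0414), with 28.9, 32.9 and 73.5 in VC, 285, 657 and 133 in N6, and 246, 151 and 3.92 in N7. N7 straddled the VC range. PR-P2 was higher in N6 by 1.58 (adjusted p = 0.0102) and AG1 fell by 0.75 (adjusted p = 0.0325).

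CBF1 and vis1 were above the floor in leaf of 1 line each. In leaf CBF1 was under the floor on all VC arrays and on all N7 arrays but read 382, 500 and 93.4 in N6, higher by at least 2.38 on the log2 scale. There vis1 was under the floor in VC and N6 but read 168, 82.3 and 143 in N7, higher by at least 1.32. Each met the leaf filter through that line alone, and for both lines together neither was called in leaf (limma adjusted p = 0.111 for CBF1 and 0.0666 for vis1). In fruit both were lower in the lines, and on floored signals the differences between the fruit and leaf effects were -4.12 for CBF1 (adjusted p = 0.000247) and -3.03 for vis1 (adjusted p = 4.26e-07).

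**Figure D5:**
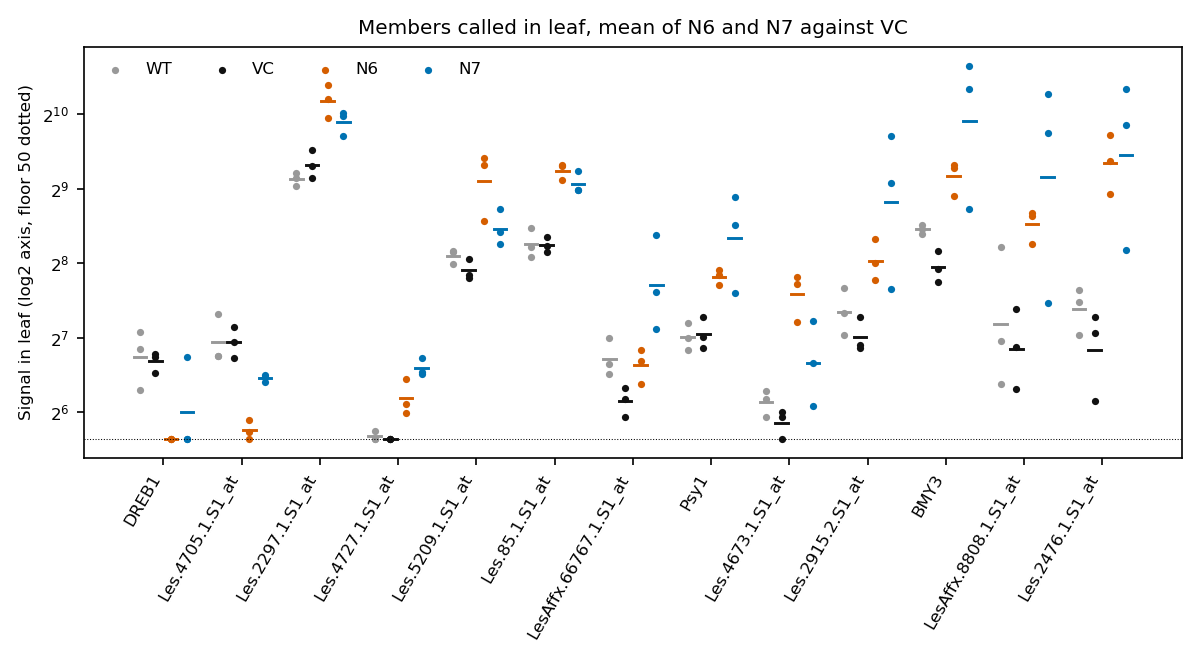
Leaf signals (vertical axis, log2 spacing, with the floor of 50 dotted) of the 13 members called for both lines against VC, on each of the 3 arrays of WT, VC, N6 and N7, ordered by their difference. Points are arrays and bars are means of log2 values. The 2 at the left are lower and the 11 others higher in the lines, and for Psy1, BMY3 and Les.2476.1.S1_at the lowest N7 point lies far below the others.

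In root tips no difference was called among the 91 members bright enough to be tested. For both lines against VC limma called 0 higher and 0 lower, with 0% and 0.0159% of the 6282 other probe sets. For N6 it called 0, with 0% of the others in either direction, and for N7 it called 0, with 0.0159% higher and 0.0637% lower. At an unadjusted p under 0.05 there were 11, 13 and 9 members for both lines, N6 and N7, beside 459, 482 and 275 of the 6282 others. With array weights 2, 2 and 8 members were called, with 1.54%, 0.748% and 5.52% of the others. The smallest adjusted p among the members was 0.459 for both lines together, and differences ran from -0.94 to 1.33. The fruit-lowered genes that could be tested there included MTSHP at -0.80, TAS14 at 0.84 and ER24 at 0.12, with adjusted p = 0.702, 0.832 and 0.99.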

How the data were processed

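The authors deposited 1 intensity value (an Affymetrix signal on a linear scale) per probe set and array, made with GCOS per the submitters' processing notes; its version and scaling target were not stated there. In the deposited values every array has a trimmed mean of 500 when the highest and lowest 2% are left out, so arrays were already scaled, which assumes equal trimmed means between tissues and genotypes. Signals ran from 0.0268 to 17262, and 54.7% to 63.8% of probe sets per array exceeded the floor. Precision is limited by the number of arrays.

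Of 10209 probe sets, 108 AFFX and 63 reporter controls were left out. Signals were floored at 50 and log2 taken. limma 3.58.1 in R 4.3.3 fitted a mean per group with a variance trend, per tissue over VC, N6 and N7 arrays (12 in fruit, 9 in leaf, 9 in root tip), on probe sets above the floor on at least 4 fruit or 3 leaf or root tip arrays. WT arrays chose the members and entered no test apart from an alternative that added them to the fits per tissue. That alternative is not independent of the choice. Enrichment and differences between tissues came from 1 fit over 30 arrays with at least 3 above the floor. Adjusted p-values are Benjamini-Hochberg values over all probe sets tested. The fits were tested on simulated data.

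Symbols came from the platform's annotation, and 59 of the 61 members with one were matched by gene identifier to a gene table of assembly SLM_r2.1, used for names only. Named were every member with an informative symbol, with 1 probe set per gene, the one of highest WT enrichment, and of members without a symbol the 5 of highest enrichment and the 5 highest and 5 lowest among those called in fruit. Genes outside this rule are introduced as such. The role groups of the named genes were drawn up after their values had been seen. The members, gene lists and tests were chosen with earlier results of these data known. Replicate numbers did not pair samples: deviations of same-numbered arrays correlated at -0.629 to 0.414. Alternatives were other floors, scalings, filters, weights, covariates, member numbers, WT arrays added to the fit, and each array left out. Promoter sequences were not used here.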

Additional observations from a re-analysis of the deposited data

Results flagged for a closer look

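Among 204 groups of 4 fruit arrays, 1 array stood far from the other 3 in 14. Chance gives about 1 group in 20 where signals are above the floor, so 14 of 204 is not far from that share. For vis1 in N7 and CBF1 in N6 the other 3 arrays were under the floor, so any value above it would have been flagged. VC 4 was the outlying array for 5 genes, with signals of 1088 for Man4, 107 for Cel1, 717 for ACS2, 361 for CHS1 and 2388 for CHS2, each below the other VC arrays. N6 1 was outlying for Les.3981.1.S1_at at 5198, Cel1 at 165 and LesAffx.34276.2.S1_at at 1177, and N7 4 for PPCK2 at 2711, vis1 at 89.0 and LE16 at 1204. Single arrays were outlying for BMY3 (N6 3, 5205), MADS1 (N7 2, 441) and CBF1 (N6 4, 65.0).

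In fruit the direct comparison of N7 with N6 differed for PE1 at -0.56, ER-SHSP at 1.41, HSP17.4 at 1.78, LesAffx.69957.1.S1_at at 2.77 and LE16 at 1.41, all log2 differences called by limma. The effect of the lines differed between fruit and leaf (fruit minus leaf, log2) for Psy1 at -1.15, loxC at -1.71, BMY3 at -1.42, vis1 at -3.03 and CBF1 at -4.12.

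A reporter control probe set, outside the tests, read 2220, 2210, 4420 and 1200 on WT 1 to 4 in fruit and 5160 on VC 4, above the 6.37 to 10.1 of VC 1 to 3.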

How the results depend on the processing

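Of 371 alternative counts 327 stayed within 1.5 times the reported count. These include the root tip counts, which were 0 throughout except with array weights. Most of the 44 that moved further were leaf counts. The fruit percentages of members here are of all 200, and those of the others are of the probe sets tested. In leaf and root tip fewer members were tested, so counts of those tested are given there. With array weights fruit calls were 75% for both lines, 72% for N6, 71% for N7 and 46.5% for N7 against N6, leaf calls 28%, 24.5% and 15.5%, and root tip calls 1%, 1% and 4%, while of the other probe sets tested 64.1%, 56.7%, 62.4% and 31.6% were called in fruit and 35.3%, 36.2% and 19.3% in leaf. N7 against N6 in fruit fell to 4.5% with median scaling and 3.5% with no filter, with 1.75% and 1.15% of the others. Leaf calls for both lines, N6 and N7 were 1.5%, 3.5% and 0.5% with a floor of 100 and 2%, 2% and 1.5% with no filter, and N6 leaf calls were 5% in the top 100 and 4.5% with the 3' to 5' covariate. With the replicate block leaf calls were 3.5%, 5.5% and 3.5%, and fruit calls 48%, 42%, 43.5% and 9%. Leaving out 1 array gave 32.5% to 56% for both lines in fruit, 31% to 53.5% for N6, 29.5% to 56% for N7 and 4% to 16% for N7 against N6. In the same fits the others had 15.4% to 42.7%, 11.2% to 35.3%, 15% to 42.2% and 1.15% to 8.51%. In leaf 1 to 29, 3 to 31 and 0 to 31 members were called, of 110 tested at the lowest and 108 at the highest. There the others had 1.46% to 19.1%, 2.6% to 18.2% and 0.84% to 17.2%. In fruit the highest values came without VC 4, the lowest without VC 1 for both lines and N6, without VC 3 for N7 and without N6 3 for N7 against N6. Among single named genes, 2240 of 2404 alternatives left the outcome as it was, 75 lost a call, 89 gained one and 0 reversed. The 2240 include differences called neither before nor after, such as all those in root tips, so they do not measure how well calls held. Single calls were lost under as many as 13 of 19 alternatives, for DREB1 in leaf. The cause of these shifts was not tested.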
